A study of Mus musculus with 8 samples.

Results

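The mitosis and spindle genes are 40 genes whose products take a cell into mitosis, build and attach the spindle, hold the checkpoint, separate the chromosomes and divide the cytoplasm. They were chosen as a list of gene symbols, by a rule that uses no array value but with earlier results of these data known, and each was read from the probe of that gene with the highest mean signal. All 40 were found on the array, all were well above background on all 8 arrays, and they are 40 of the 21528 genes that could be tested. Of these 21528, 12937 had a gene symbol. The others were transcripts or probes without one, and they are counted as genes in each share of all genes below. The cells were J774.1, a macrophage-like line derived from a BALB/c mouse, and the series used this 1 line. There were 4 groups with 2 biological replicates each: control cells, cells given isorhamnetin at 10 µM, cells given tamarixetin at 10 µM, and cells given Torin1 at 1 µM, the compounds for 6 h. The dose and time of any vehicle for the control cells are not given in the sources used here. The first pair of compounds are flavonol isomers, quercetin with a methyl group on one or the other of a pair of neighbouring hydroxyls, and Torin1 is an inhibitor of the mTOR kinase.

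Entry into mitosis is driven by Cdk1 bound to a cyclin, and kinases such as Plk1 and the Aurora kinases then shape the spindle. The kinetochore holds chromosomes to microtubules, the checkpoint holds back the anaphase-promoting complex until every chromosome is attached, and that complex then marks cyclin B and securin for destruction. The messenger RNAs of many of these proteins rise together late in the cell cycle and are low in cells that do not divide, so in a growing line such as this one they report on proliferation.

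Each value below is the log2 of an array's processed probe signal minus the log2 of that array's 75th percentile over probes (differences below are on this log2 scale). Fold changes, standard errors (SE), 95% intervals and p-values come from 1 limma model over all 8 arrays, and a gene is called where its Benjamini-Hochberg adjusted p over all 21528 genes is under 0.05. The 75th percentile lay between 324 and 404 signal units, and 41.5% to 52.3% of probes were well above background on each array. Replicates correlated at 0.9918 to 0.997 over all genes. Within groups the replicate SD of the 40 genes was 0.046 to 0.089 log2 units, against 0.187 to 0.313 over all genes. Of 10 macrophage markers, 8 were above background on all arrays, and Mertk and Mrc1 were above it on none. All 8 arrays shared 1 slide and 1 scan, with control and isorhamnetin in slide row 1 and tamarixetin and Torin1 in slide row 2, so that position and group cannot be told apart.

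With Torin1, 34 of the 40 mitosis and spindle genes were lower than in control cells by the limma test and 0 higher (36 lower and 0 higher at an unadjusted p under 0.05). Of all genes tested 29.1% were called lower and 20% higher, and 33.6% and 22.9% passed the unadjusted p in each direction. The 40 genes were all well above background on all 8 arrays. When only such genes were fitted, 36.7% were called lower and 22.6% higher, and 36 of the 40 were called lower. The median log2 fold change of the 40 genes was -0.49, which is 71.4% of the control signal, and that of all genes was -0.08. Among the called genes the Torin1 signal ran from 54.1% of control for Aurkb to 87.7% for Cenpe. Neither flavonol gave a called gene among the 40, and each had 2 at an unadjusted p under 0.05. On both Torin1 arrays 37 of the 40 were lower than on every one of the other 6 arrays, a pattern shown by 33.3% of all genes. In RNA from a whole culture, fewer cells in mitosis and less of each messenger RNA per cell cannot be told apart.

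**Figure D1:**
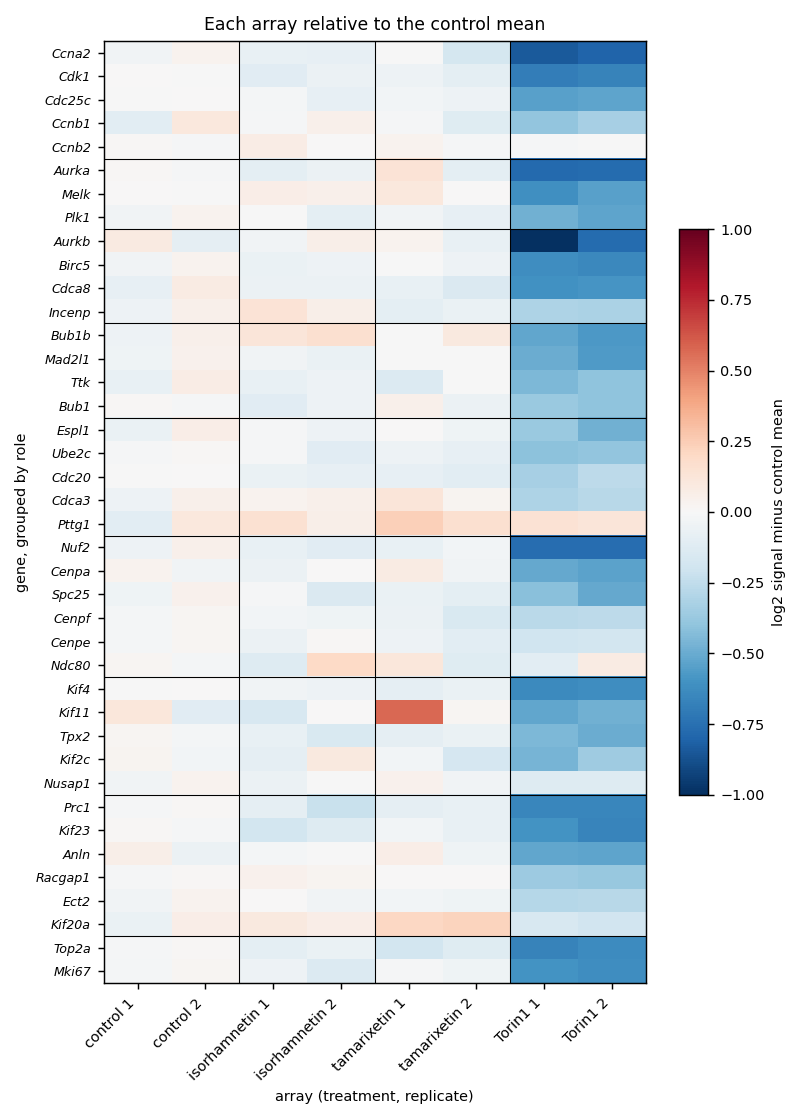
Colour gives the log2 signal of each array minus the mean of the 2 control arrays, for 40 mitosis and spindle genes (rows, grouped by role and divided by lines) on 8 arrays (columns, 2 per group). The 2 Torin1 columns are blue in 37 rows, below all 6 other arrays, and Ccnb2, Ndc80 and Pttg1 are the rows that are not.

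Scaling on the median in place of the 75th percentile moved the median of all genes for Torin1 from -0.08 to -0.27, and of all calls the share that were lower from 59.3% to 77.2%. Each of these scalings subtracts 1 value per array. The difference between the median of the 40 genes and that of all genes (-0.40) therefore cannot differ between them. This difference was -0.28 under quantile normalization, which can change it. Under quantile normalization 36 of the 40 log2 fold changes were negative, against 39 as scaled here. Markers of other cells were read beside this result: 3 of 5 T cell markers (Cd3e, Cd4 and Lck) were above background on all arrays, with a summed level of 2.79 and 2.91 in control, 2.51 to 2.68 with the flavonols, and 2.11 and 2.24 with Torin1, while Cd3g and Cd8a were above background on none. For 2 of 3 neutrophil markers, S100a8 and Elane, the sums were 1.49 and 1.59 in control, 0.74 to 1.35 with the flavonols, and 0.92 and 0.98 with Torin1. No fibroblast, epithelial or B cell marker was above background on all arrays, and the summed level of the 8 macrophage markers was 9.28 to 9.50 throughout. The part of these markers in the result was not tested.

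The number of calls moved with single arrays. Without control replicate 2 the calls fell to 29, losing Ccnb1, Cdca3, Cenpe, Cenpf and Kif2c, and without Torin1 replicate 1 they fell to 29 with the same 5 genes lost. Without Torin1 replicate 2 there were 31, losing Ccnb1, Cenpe and Cenpf, and without control replicate 1 there were 33, losing Cenpe and Kif2c and gaining Kif20a. The other 29 genes were called lower in each of these 4 fits. The share of all genes called lower also fell in each of these 4 fits. With no array left out, the median log2 fold change of the mitosis and spindle genes minus that of all genes was -0.40. This difference ran from -0.42 to -0.38 in these fits. Under quantile normalization Cdc20, Cdca3, Cenpe and Incenp were not called, and with no filter on dim probes Ccnb1, Cdc20, Cdca3, Cenpe, Cenpf, Ect2, Incenp and Kif2c were not.

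Many mitotic genes carry a CHR element, bound by the DREAM and MYB-FOXM1 complexes, and CCAAT boxes, bound by NF-Y, close to their start. The promoters in RefSeq (GRCm38.p6, 250 bases before to 50 after each annotated start) were searched on both strands for 3 sets of letters. These were TTTGAA for the CHR, TTCGAA for its palindromic form, and CCAAT. An entry was found for 34 of the 40 genes, not for Ccna2, Cdc25c, Aurkb, Incenp, Tpx2 and Kif20a. A CHR or its palindromic form was in 26 of 34 (76.5%), where 21.7% of the 27025 genes with a promoter entry held it. CCAAT was in 25 of 34 (73.5%), against 41.1%, and both were in the same promoter in 23 of 34 (67.6%), against 8.61%. Of the 29 genes with an entry that were called lower with Torin1, 23 held a CHR of either form, and of the 5 that were not called, 3 did. The 40 genes were listed as mitotic genes, so shares above those of all genes describe the list. The part of these motifs in the change with Torin1 was not tested. Matches are letters in a window and were not tested as binding sites. The annotated start used here lies more than 100 bases from the start of the gene in the name table for Aurka, Pttg1, Cdca3, Kif2c and Ect2.

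The 5 stretches that follow are the 250 bases before the annotated start, 5′ to 3′ on the gene's strand, with capitals on the motifs (ATTGG and TTCAAA are CCAAT and TTTGAA read on the other strand). Aurka, Nuf2 and Cdk1 are shown as the 3 largest called changes with an entry, of which Nuf2 has no match, Top2a as a well known proliferation gene with many matches, and Ccnb2, picked after its values were seen, as a promoter with both motifs whose gene was not called. All lie on the minus strand: Cdk1 at chr10:69352913-69353162, Top2a at chr11:99024190-99024439, Aurka at chr2:172370571-172370820, Nuf2 at chr1:169531465-169531714 and Ccnb2 at chr9:70421555-70421804.
Cdk1: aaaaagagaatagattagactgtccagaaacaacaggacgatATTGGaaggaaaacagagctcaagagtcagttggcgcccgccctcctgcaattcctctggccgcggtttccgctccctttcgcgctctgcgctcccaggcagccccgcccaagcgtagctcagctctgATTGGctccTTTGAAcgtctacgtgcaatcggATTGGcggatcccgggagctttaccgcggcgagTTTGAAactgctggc
Top2a: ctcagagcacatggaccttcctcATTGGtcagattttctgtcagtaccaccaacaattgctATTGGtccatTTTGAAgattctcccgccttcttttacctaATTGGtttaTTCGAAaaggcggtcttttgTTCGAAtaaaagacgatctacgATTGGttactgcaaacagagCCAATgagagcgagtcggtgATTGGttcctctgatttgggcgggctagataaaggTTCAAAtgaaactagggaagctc
Aurka: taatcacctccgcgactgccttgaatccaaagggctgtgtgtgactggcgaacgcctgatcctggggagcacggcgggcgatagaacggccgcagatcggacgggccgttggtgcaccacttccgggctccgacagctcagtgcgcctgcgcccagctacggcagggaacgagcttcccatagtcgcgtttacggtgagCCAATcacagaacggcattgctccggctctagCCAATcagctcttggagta
Nuf2: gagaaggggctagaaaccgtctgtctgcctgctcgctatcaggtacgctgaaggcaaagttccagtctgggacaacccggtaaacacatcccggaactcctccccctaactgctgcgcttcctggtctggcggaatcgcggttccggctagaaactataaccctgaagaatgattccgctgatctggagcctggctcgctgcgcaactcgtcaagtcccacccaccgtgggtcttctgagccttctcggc
Ccnb2: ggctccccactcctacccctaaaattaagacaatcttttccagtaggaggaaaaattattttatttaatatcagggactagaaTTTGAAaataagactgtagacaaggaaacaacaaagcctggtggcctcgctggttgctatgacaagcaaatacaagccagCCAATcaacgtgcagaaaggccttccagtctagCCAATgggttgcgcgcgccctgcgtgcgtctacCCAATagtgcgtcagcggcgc
The Cdk1 stretch holds CHR matches that begin at -71 and -15. In Top2a they begin at -179 and -23, with palindromic matches at -140 and -120. The match of Aurka begins at 33, past its start and outside the printed stretch. Ccnb2 has matches at -167 and at 5.

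**Figure D2:**
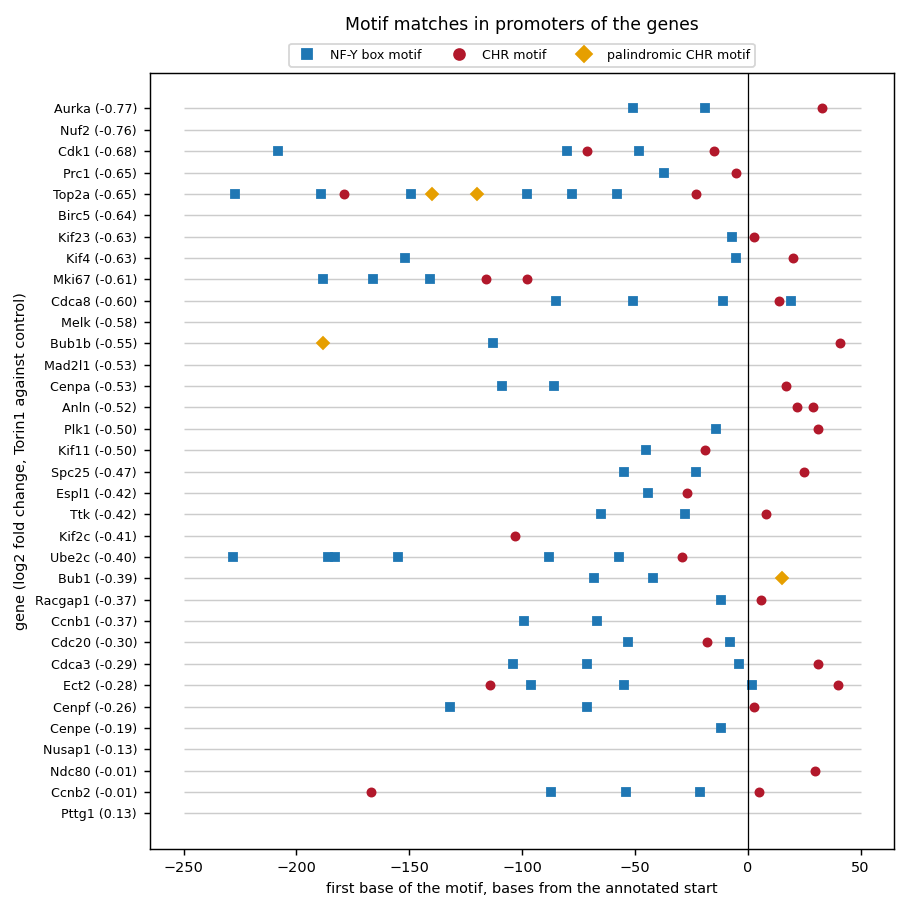
Rows are the 34 mitosis and spindle genes with a promoter entry, ordered by log2 fold change with Torin1 (in brackets), and the horizontal axis is the distance in bases from the annotated start to the first base of each match. Squares are the NF-Y box, circles the CHR and diamonds its palindromic form, and rows without any match occur at both ends, from Nuf2 (-0.76) to Pttg1 (0.13).

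The cyclin-dependent kinase, its cyclins and its activating phosphatase gave 4 calls in 5 with Torin1. Cdk1, the kinase that starts mitosis, measured 3.85 and 3.84 in control, 3.73 and 3.78 after isorhamnetin, 3.79 and 3.74 after tamarixetin, and 3.15 and 3.17 after Torin1. The Torin1 arrays lay below the other 6, which were close together. Torin1 gave 62.4% of control (log2 fold change -0.68, SE 0.05, limma adjusted p = 0.00039). Ccna2, the cyclin that acts in S phase and up to early mitosis, measured 5.87 and 5.94 in control, 5.83 and 5.83 after isorhamnetin, 5.90 and 5.73 after tamarixetin, and 5.07 and 5.10 after Torin1. The other 6 arrays lay close together, with the tamarixetin replicates the furthest apart, and Torin1 lay below all of them, at 56.6% of control (log2 fold change -0.82, SE 0.07, limma adjusted p = 0.000633). Cdc25c, a phosphatase that activates Cdk1, was 68.9% of control with Torin1.

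The B-type cyclins, which carry Cdk1 through mitosis, differed from each other. Ccnb1 measured 4.27 and 4.48 in control, 4.36 and 4.43 after isorhamnetin, 4.36 and 4.25 after tamarixetin, and 3.98 and 4.04 after Torin1. The Torin1 values lay below the others, and the control replicates enclosed the isorhamnetin values. Torin1 gave 77.6% of control (log2 fold change -0.37, limma adjusted p = 0.0174), a call lost without control replicate 2 (0.0695), without Torin1 replicate 1 (0.0826), without Torin1 replicate 2 (0.0541), and with no filter on dim probes (0.0759). Ccnb2 measured 5.78 and 5.76 in control, 5.85 and 5.78 after isorhamnetin, 5.81 and 5.76 after tamarixetin, and 5.76 and 5.77 after Torin1. Its Torin1 values overlapped those of control and of tamarixetin, and both isorhamnetin values lay just above both Torin1 values. The log2 fold change of Ccnb2 with Torin1 was -0.01 with a 95% interval of -0.14 to 0.12, so a fall of the median size of the 40 genes lies outside it. Under quantile normalization the same gene came out at 0.17 and was called higher (limma adjusted p = 0.0304), and under median scaling it was -0.20 and not called (limma adjusted p = 0.152).

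All 3 mitotic kinases were called lower with Torin1. Aurka, which matures centrosomes and spindle poles, measured 5.88 and 5.86 in control, 5.77 and 5.82 after isorhamnetin, 6.01 and 5.77 after tamarixetin, and 5.10 and 5.10 after Torin1. The tamarixetin replicates enclosed the control values, and the Torin1 replicates were nearly the same. Torin1 gave 58.6% of control (log2 fold change -0.77, SE 0.08, limma adjusted p = 0.00126). Plk1, which acts at centrosomes, kinetochores and the midzone, measured 5.49 and 5.56 in control, 5.52 and 5.43 after isorhamnetin, 5.49 and 5.44 after tamarixetin, and 5.05 and 5.001 after Torin1. Here too the Torin1 arrays lay below the other 6, at 70.6% of control (log2 fold change -0.50, SE 0.06, limma adjusted p = 0.00164). Melk, a kinase abundant in dividing cells, was at 67.0% of control with Torin1.

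The chromosomal passenger complex, which corrects faulty attachments and then moves to the midzone, had all 4 of its measured subunits called lower with Torin1. Its kinase Aurkb showed the lowest log2 fold change of the 40 genes. Aurkb measured 3.21 and 3.04 in control, 3.09 and 3.18 after isorhamnetin, 3.16 and 3.05 after tamarixetin, and 2.12 and 2.35 after Torin1. The Torin1 replicates were further apart than those of any other group and both lay under the other 6 arrays, at 54.1% of control (log2 fold change -0.89, SE 0.11, limma adjusted p = 0.00169). The anchoring subunits survivin (Birc5) and borealin (Cdca8) were at 64.3% and 66.1% of control. Incenp, the scaffold, was at 80.5% of control (limma adjusted p = 0.00796), a call lost under quantile normalization (-0.12, 0.0598) and with no filter on dim probes (0.0599).

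Of the spindle checkpoint, all 4 genes were called lower with Torin1, between 68.4% and 76.5% of control. Bub1b, part of the inhibitor of the anaphase-promoting complex, measured 3.10 and 3.20 in control, 3.27 and 3.31 after isorhamnetin, 3.14 and 3.25 after tamarixetin, and 2.63 and 2.57 after Torin1. The Torin1 arrays of Bub1b lay below the other 6 and the isorhamnetin arrays were the highest, with a log2 fold change for Torin1 of -0.55 (SE 0.07). Mad2l1, which is handed on to Cdc20 at unattached kinetochores, was at 69.3% of control, the checkpoint kinase Ttk at 74.6% and Bub1 at 76.5%.

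The anaphase-promoting complex's activator, partner enzyme, targets and separase gave 4 calls in 5, and their falls were the smallest of the 9 role groups by median (log2 fold change -0.30). The activator Cdc20 was at 81.4% of control, the ubiquitin-conjugating enzyme Ube2c at 75.6%, separase (Espl1) at 74.6% and Cdca3, a substrate of the complex, at 81.6%. Securin (Pttg1), which holds separase inactive, measured 6.00 and 6.22 in control, 6.26 and 6.17 after isorhamnetin, 6.35 and 6.27 after tamarixetin, and 6.25 and 6.23 after Torin1. Its control replicates were the furthest apart and both Torin1 values lay just above the higher of them, and the log2 fold change with Torin1 was 0.13 (95% interval -0.08 to 0.35, limma adjusted p = 0.256), the only positive one among the 40 as scaled here. The other Pttg1 probe gave -0.58 (limma adjusted p over probes = 0.00473), the mean of both probes gave -0.22, and median scaling gave -0.06. The direction for Pttg1 thus depends on the probe and on the scaling.

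The centromere and kinetochore genes gave 5 calls in 6, with a wide spread. Nuf2, a subunit of the NDC80 complex that binds microtubules, measured 3.54 and 3.64 in control, 3.52 and 3.48 after isorhamnetin, 3.52 and 3.56 after tamarixetin, and 2.83 on both arrays after Torin1. The Torin1 arrays lay below the other 6, at 59.1% of control (log2 fold change -0.76, SE 0.06, limma adjusted p = 0.000421). Spc25, of the same complex, was at 72.3% of control, and the centromeric histone Cenpa at 69.4%. Ndc80, the partner of Nuf2 in that complex, measured 1.28 and 1.24 in control, 1.13 and 1.46 after isorhamnetin, 1.37 and 1.14 after tamarixetin, and 1.15 and 1.34 after Torin1. In each treated group the replicates of Ndc80 lay further apart than the 4 group means did, and its 95% interval with Torin1 ran from -0.36 to 0.33, around a log2 fold change of -0.01 that was above 0 with normexp background correction, quantile normalization and the percentile over spots. The large kinetochore protein Cenpf was at 83.3% of control. The kinetochore motor Cenpe, at 87.7%, was the called gene nearest to control, and under quantile normalization its log2 fold change was 0.02, above 0 and not called (limma adjusted p = 0.762). Cenpe also lost its call with normexp background correction (0.122), no filter on dim probes (0.158), the replicate number as a block (0.0619) and a fit of the 2 groups alone (0.0562).

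Of the spindle motors and microtubule proteins 3 of 5 were called lower with Torin1. The chromokinesin Kif4 was at 64.7% of control (log2 fold change -0.63, SE 0.05), Tpx2, which activates Aurka on the spindle, at 72.1%, and the depolymerising kinesin Kif2c at 75.3%. Kif11, the motor that pushes spindle poles apart, measured 0.80 and 0.58 in control, 0.53 and 0.69 after isorhamnetin, 1.26 and 0.71 after tamarixetin, and 0.17 and 0.21 after Torin1. Both Torin1 values were the lowest of the 8, but the tamarixetin replicates were far apart and the difference did not pass (log2 fold change -0.50, SE 0.19, limma adjusted p = 0.0761). With either tamarixetin replicate left out, Kif11 was called lower and the calls came to 35. Nusap1, which bundles spindle microtubules, measured -0.13 on the log2 scale against control (not called, 95% interval -0.26 to 0.01).

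Among 6 genes of the central spindle and cytokinesis, 5 were called lower with Torin1. Prc1, which bundles the antiparallel microtubules of the midzone, measured 4.51 and 4.54 in control, 4.43 and 4.30 after isorhamnetin, 4.43 and 4.45 after tamarixetin, and 3.87 on both arrays after Torin1. Its Torin1 level was 63.6% of control (log2 fold change -0.65, SE 0.06, limma adjusted p = 0.000733). Of the centralspindlin pair, the motor Kif23 was at 64.5% of control and Racgap1 at 77.4%, while the other probe of Racgap1 gave a log2 fold change of -0.58 beside the -0.64 of the other probe of Kif23. Anillin (Anln), a scaffold of the contractile ring, was at 69.6%, and Ect2, the exchange factor that starts furrowing, at 82.3%. Kif20a, a midzone kinesin, measured 3.999 and 4.12 in control, 4.16 and 4.13 after isorhamnetin, 4.27 and 4.28 after tamarixetin, and 3.90 and 3.87 after Torin1. Torin1 values of Kif20a were the lowest and tamarixetin values the highest of the 8, with a log2 fold change against control of -0.18 for Torin1 (limma adjusted p = 0.0554).

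Both genes of chromosome structure were called lower with Torin1. Top2a, the topoisomerase that untangles sister chromatids, measured 5.17 and 5.20 in control, 5.09 and 5.12 after isorhamnetin, 5.004 and 5.06 after tamarixetin, and 4.52 and 4.56 after Torin1. The proliferation marker Mki67, a coat of mitotic chromosomes, measured 5.97 and 6.00 in control, 5.94 and 5.85 after isorhamnetin, 5.97 and 5.95 after tamarixetin, and 5.39 and 5.36 after Torin1. For each of these genes the Torin1 arrays lay below the other 6, at 63.8% of control for Top2a (limma adjusted p = 0.000473) and 65.5% for Mki67 (limma adjusted p = 0.000669).

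**Figure D3:**
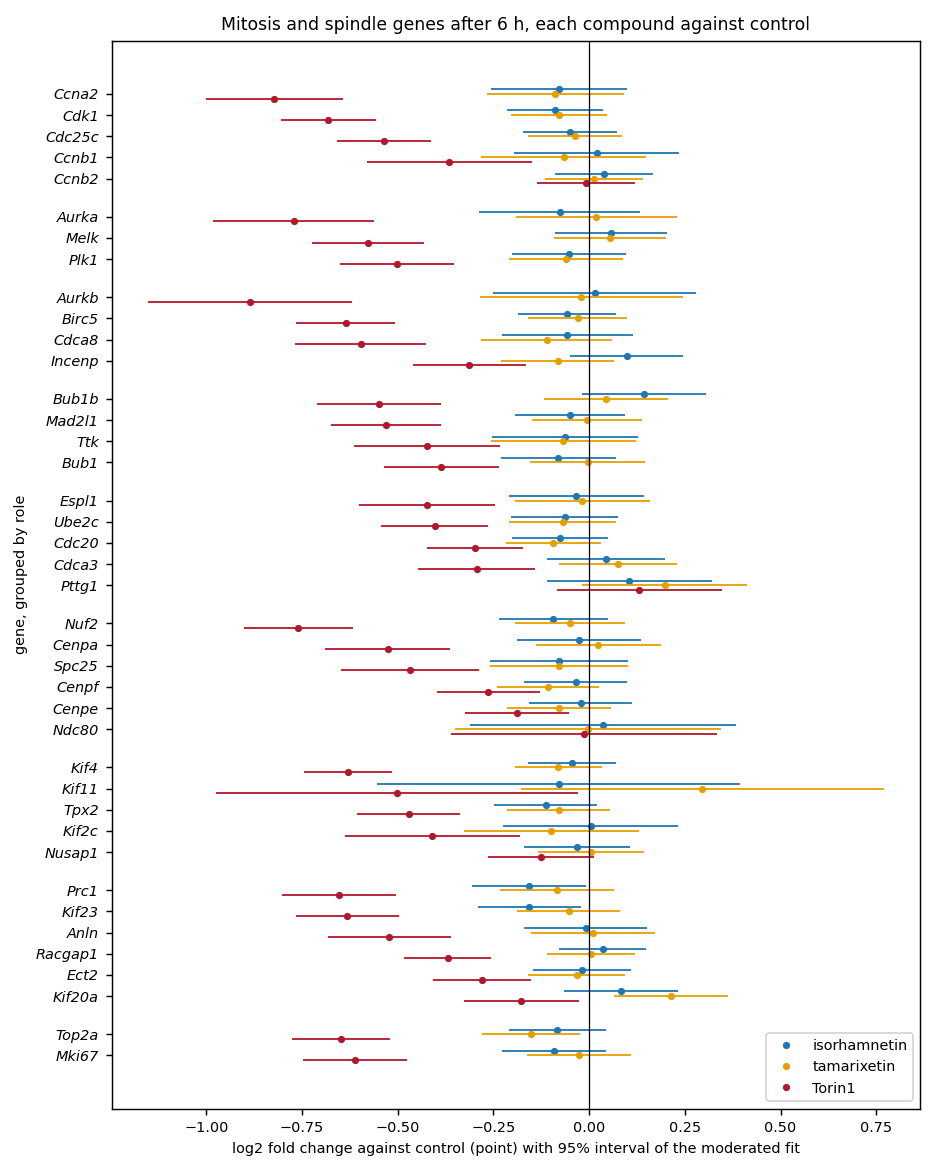
Points are log2 fold changes against control for isorhamnetin, tamarixetin and Torin1 and lines their 95% intervals from the limma fit (2 arrays per group), for 40 mitosis and spindle genes grouped by role. Torin1 points lie left of 0 for 39 genes (36 under quantile normalization, 40 under median scaling), from -0.89 for Aurkb, while the flavonol points run from -0.16 to 0.30.

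Other probes of the same genes were read to see whether the choice of probe set the result. There were 21 other probes for 19 of the genes, and all 21 had a negative log2 fold change with Torin1, of which 19 passed at an adjusted p over the 27562 probes. The remaining pair were the other probe of Cenpf (-0.13, limma adjusted p = 0.212) and of Ect2 (-0.19, limma adjusted p = 0.33). Of the 21528 genes tested, 12393 had a negative log2 fold change with Torin1 and 29.1% were called lower. The shares over all probes are not given here. The other probes were read on the same 8 arrays. Sizes differed between probes: Ccna2 gave -0.82 and -0.39, and the 3 probes of Ccnb1 gave -0.37, -0.58 and -0.71. With the mean of the probes in place of the brightest, 34 genes were again called lower.

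**Figure D4:**
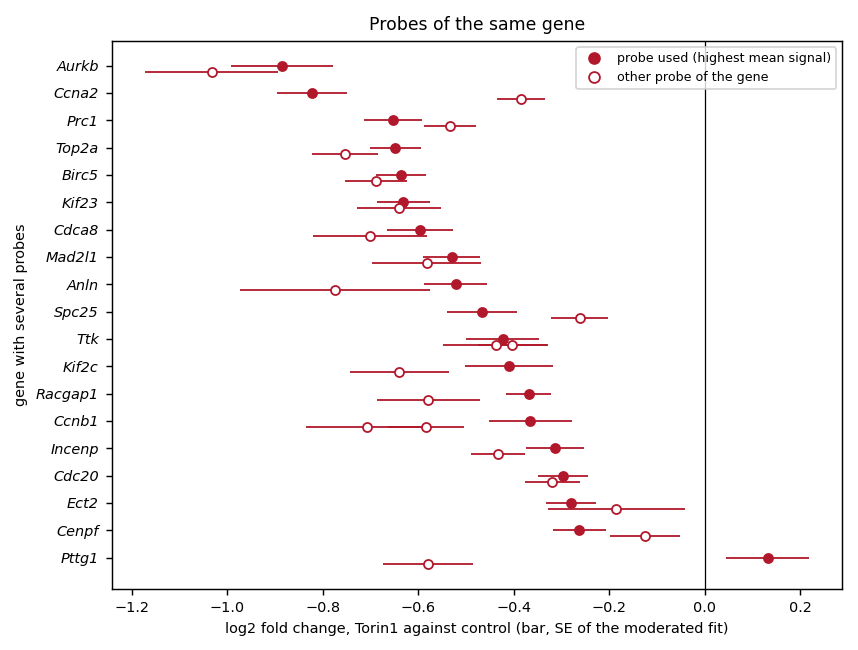
Filled points are the log2 fold change with Torin1 of the probe used for each of the 19 mitosis and spindle genes that have several probes, open points their other probes, and bars the SE of the limma fit. Every open point lies left of 0, also that of Pttg1, whose filled point is at 0.13.

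With isorhamnetin none of the 40 genes was called against control, where 0.562% of all genes were called in either direction. At an unadjusted p under 0.05 there were 2 of 40 (15.6% of all genes), both lower. The log2 fold changes ran from -0.16 to 0.14 around a median of -0.05. Kif23 measured 3.48 and 3.45 in control against 3.28 and 3.34 with isorhamnetin, which did not overlap (log2 fold change -0.16, 95% interval -0.29 to -0.02, limma adjusted p = 0.261). Prc1, given above, was also below both control values on both isorhamnetin arrays (-0.16, limma adjusted p = 0.302). Bub1b was above them on both (0.14, 95% interval -0.02 to 0.30, limma adjusted p = 0.369). Of the 40 genes 15 were lower on both isorhamnetin arrays than on both control arrays and 5 were higher, where 23.9% and 26.4% of all genes were.

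With tamarixetin none of the 40 was called either, where 0.079% of all genes were. At an unadjusted p under 0.05 there were 2 of 40 (13.3% of all genes), Kif20a higher and Top2a lower. Kif20a was above both control values on both arrays (log2 fold change 0.21, 95% interval 0.06 to 0.36, limma adjusted p = 0.263). Top2a was below them on both (-0.15, 95% interval -0.28 to -0.02, limma adjusted p = 0.318), and Pttg1 above (0.20, 95% interval -0.02 to 0.41, limma adjusted p = 0.409). The median log2 fold change was -0.04 and the highest, 0.30 for Kif11, came from replicates at 1.26 and 0.71. Of the 40 genes 14 were lower on both tamarixetin arrays than on both control arrays and 3 higher, where 26.9% and 18.4% of all genes were.

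The 95% intervals show what sizes of difference from control remain possible with the flavonols, in groups that also differ in slide position. For isorhamnetin the interval lay within 0.5 log2 units either side of 0 for 39 of 40 genes and within 0.25 for 29. For tamarixetin these counts were 39 and 28, and for both compounds Kif11 was the gene outside 0.5. Of the 34 genes called lower with Torin1, the isorhamnetin interval lay wholly above the Torin1 estimate in 34. The tamarixetin interval did so in 33, all but Cenpe. The genes were picked by their Torin1 change, and the error of that change is left out. These counts are therefore no test of a difference between compounds. In the direct fits below, Cenpe was not called against isorhamnetin (limma adjusted p = 0.0559). Against tamarixetin Cenpe (limma adjusted p = 0.161) and Cenpf (0.0633) were not called. The comparisons of the 3 compounds with control share the control arrays.

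The isomers were set against each other at the same dose and time. None of the 40 genes was called between them, where 0.776% of all genes were, and 1 had an unadjusted p under 0.05 (12.4% of all genes). That gene was Incenp, at 6.70 and 6.80 in control, 6.89 and 6.81 after isorhamnetin, 6.65 and 6.69 after tamarixetin, and 6.45 and 6.43 after Torin1. Its isorhamnetin values lay above its tamarixetin values by 0.18 log2 units (95% interval 0.03 to 0.33, limma adjusted p = 0.318). For Kif20a isorhamnetin minus tamarixetin was -0.13 (95% interval -0.28 to 0.02) and for Kif11 -0.37 (95% interval -0.85 to 0.10), and neither passed. The median difference over the 40 was 0.001, and 39 of the 40 intervals lay within 0.5 log2 units either side of 0, 30 of them within 0.25. No difference between the isomers passed the test. Isorhamnetin was in slide row 1 and tamarixetin in slide row 2. These intervals therefore bound the difference between the groups as placed, not that due to the methyl position alone.

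Torin1 was also set against each flavonol, at the same time but at another dose. Against isorhamnetin 34 genes were higher with the flavonol (25.8% of all genes) and 0 lower (16.2%), also 0 lower at an unadjusted p under 0.05 (19.5%), with a median of 0.42. Against tamarixetin there were again 34 higher (25.2% of all genes) and 0 lower (18.7%), also 0 lower at an unadjusted p under 0.05 (22.1%), with a median of 0.42. These sets of 34 were not the same genes as the 34 called against control. Against isorhamnetin Kif20a was called and Cenpe was not. Against tamarixetin Kif11 and Kif20a were called and Cenpe and Cenpf were not. Both comparisons share the Torin1 arrays with that against control. Tamarixetin and Torin1 were in the same slide row, but in slide columns 1 and 2 and slide columns 3 and 4. Position and group cannot be told apart in this comparison either.

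Further genes of the same process were read from lists that hold none of the 40, and each count with Torin1 is to be set beside the 29.1% lower and 20% higher of all genes. Of 62 further mitotic genes 47 were lower with Torin1 and 1, Spdl1, was higher, with a median log2 fold change of -0.48. The lowest log2 fold changes were those of Hjurp (-1.27), which loads the centromeric histone, the kinesin Kifc1 (-1.08), Ckap2l (-0.91) and Zwint (-0.88). Hjurp and Kifc1 had an SE of 0.34 and 0.35 and rest on single arrays. The Hjurp probe was also dim, at -2.58 and -1.46 in control and -3.35 and -3.24 with Torin1. It was not well above background on every array, and its log2 fold change was -0.64 with normexp background correction. Hjurp was -0.72 without control replicate 2, and its call was lost without Torin1 replicate 1 (limma adjusted p = 0.1) or 2 (0.0794). Kifc1 was -0.55 without Torin1 replicate 1 and not called (limma adjusted p = 0.0888), and lost its call in 11 of 19 alternatives. Spdl1 (0.43) was not called without control replicate 2 (0.0939) or either Torin1 replicate (0.0617 and 0.0998), with no filter (0.0818) or under median scaling (0.24). Condensin and cohesin had 9 of 18 lower and 1 higher (median -0.22). The list of anaphase-promoting complex subunits, which also holds its coactivator Fzr1 and the conjugating enzyme Ube2s, had 8 of 16 lower and 1 higher (median -0.24). The transcription regulators of mitotic genes had 13 of 23 lower and 2 higher (median -0.40). Among them Mybl2, the B-MYB subunit that joins the MuvB core, fell by 1.34 on the log2 scale, E2f8 by 1.09 and E2f4 by 0.62, while Tfdp2 rose by 0.83. Of 17 entry and exit kinases, phosphatases and their partners or regulators, 7 were lower and 4 higher (median -0.04). Among them the kinases Nek6 and Nek7 rose by 0.94 and 0.64, while the kinase Haspin fell by 0.68 and the regulator Arpp19 by 0.65.

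DNA replication genes, which act earlier in the cycle, had 30 of 36 lower and 3 higher with Torin1, with a median of -0.52 beside the -0.49 of the mitosis and spindle genes. The largest changes were in Tk1 (-1.51), Ccne2 (-1.21), Cdc6 (-1.14) and Rrm2 (-1.13), and the licensing factor Cdt1 rose by 0.73. The Ccne2 probe was dim, at -3.76 and -3.19 in control and -4.47 and -4.91 with Torin1. It was not well above background on every array. Ccne2 was not called without control replicate 2 (-0.93, limma adjusted p = 0.0716) or Torin1 replicate 2 (0.0705), and was -0.33 with normexp background correction. None of these 6 lists had a gene called by limma with isorhamnetin, with tamarixetin or between them. At an unadjusted p under 0.05, isorhamnetin had at most 4 in a list, 4 of 23 transcription regulators (15.6% of all genes), tamarixetin 4 of 17 entry and exit genes (13.3%), and the isomers 3 of 23 transcription regulators (12.4%).

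**Figure D5:**
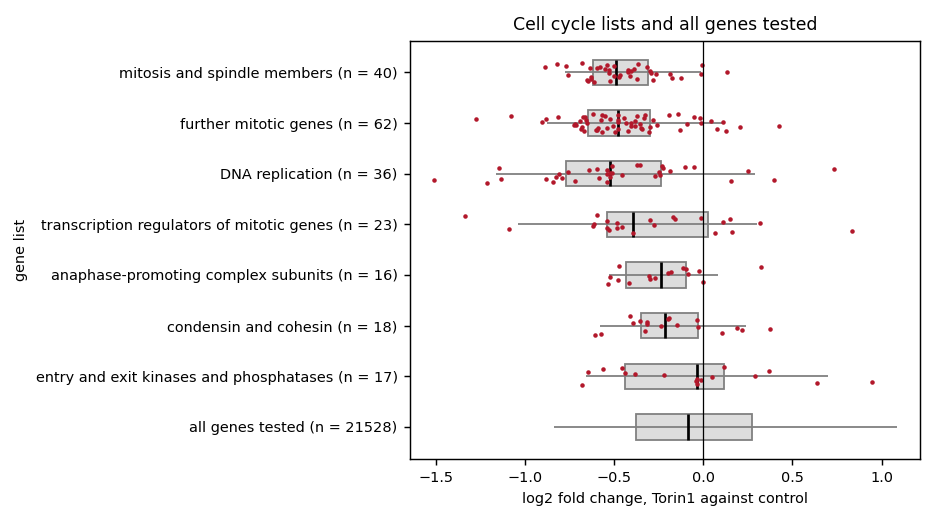
Points are the log2 fold change with Torin1 of each gene in a list, boxes the quartiles with the median as a bar, and whiskers the 5th to 95th percentile of the list; all genes tested are shown by box and whisker only. The medians of the mitosis and spindle genes (-0.49), further mitotic genes (-0.48) and DNA replication genes (-0.52) lie left of that of all genes (-0.08).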

How the data were processed

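Total RNA of each culture was labelled with Cy3 and hybridised to 1-colour Agilent arrays, per the labels' protocols. The deposited scanner files hold intensity per spot, processed by Agilent Feature Extraction 10.7.1.1 per their headers. The deposited log2 value table matched log2 intensity minus the array's 75th percentile over probes to within 0.01 for 99.85% of 56605 probes, and was used as an alternative. Outlier spots were dropped, spots of a probe averaged, and a probe kept where well above background on both arrays of a group (27562 probes). Probes were named through RefSeq accessions, and the brightest probe per gene was taken. limma 3.58.1 in R 4.3.3 fitted group means over all 8 arrays and was tested on simulated data. The number of arrays limits the precision. All 40 genes were described by role, with array values for a panel of 6, the largest called genes, and where none was called the smallest p. Members and lists were chosen with earlier results of these data known. Alternatives covered background, scaling, filter, probe, fit, slide edge and each array left out.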

Additional observations from a re-analysis of the deposited data

How the results depend on the processing

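Over 20 alternative settings, 26 to 36 of the 40 genes were called with Torin1 against control, fewest with no filter on dim probes, and 0 with isorhamnetin, with tamarixetin or between them. Medians that moved by more than the replicate SD of the median (0.0202) are given here. Normexp background correction gave -0.024 for isorhamnetin, -0.014 for tamarixetin, -0.442 for Torin1 and 0.391 for isorhamnetin against Torin1. Quantile normalization gave -0.024 for isorhamnetin, -0.344 for Torin1, and 0.311 and 0.286 for isorhamnetin and tamarixetin against Torin1. Median scaling gave -0.103, -0.116 and -0.675 for isorhamnetin, tamarixetin and Torin1, 0.025 between the isomers, and 0.55 and 0.531 against Torin1. The mean of a gene's probes gave -0.514 for Torin1, and 0.447 and 0.449 against it. The authors' deposited values gave -0.061 for tamarixetin and 0.026 between the isomers. Without the edge rows, which left 34 genes, the values were -0.011 for tamarixetin, -0.525 for Torin1, -0.041 between the isomers, and 0.476 and 0.492 against Torin1. The percentile over spots, chosen after seeing the data, gave -0.461 for Torin1, and 0.387 and 0.388 against it. Leaving out each replicate in turn, medians ran from -0.065 to -0.026 for isorhamnetin, -0.062 to -0.013 for tamarixetin, -0.504 to -0.471 for Torin1, -0.024 to 0.022 between the isomers, 0.418 to 0.448 for isorhamnetin against Torin1, and 0.401 to 0.464 for tamarixetin against Torin1.

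These single genes changed sign, and the cause was not tested. Mki67 with tamarixetin was 0.03 with normexp and 0.003 with quantile normalization. Ndc80 with Torin1 was 0.066 with normexp, 0.053 with quantile normalization, 0.012 with the percentile over spots, and ran from -0.107 to 0.08 with 1 replicate left out. Ccnb2 with Torin1 was 0.172 with quantile normalization, 0.017 with the percentile over spots and -0.019 to 0.002 with 1 replicate left out. Cenpe with Torin1 was 0.023 with quantile normalization. Plk1 between the isomers was -0.044 with normexp and -0.039 to 0.053 with 1 replicate left out. Ccnb1 with isorhamnetin was -0.036 with median scaling and -0.082 to 0.122 with 1 replicate left out, and with tamarixetin -0.169 to 0.036. Aurka with tamarixetin was -0.062 with median scaling, -0.008 in the authors' deposited values and -0.099 to 0.137 with 1 replicate left out, and -0.213 to 0.023 between the isomers. Pttg1 with Torin1 was -0.057 with median scaling and -0.224 with the mean of probes, and was called higher at 0.321 with quantile normalization (limma adjusted p = 0.0101). Cdk1 between the isomers was 0.014 with median scaling and 0.014 in the authors' values, and -0.037 to 0.016 with 1 replicate left out.

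Same-numbered replicates deviated together with correlations of -0.131 to 0.083, so the numbers were not taken as pairs. With the replicate number as a block, 33 genes were called with Torin1, losing Cenpe, and the median stayed at -0.487. With no filter on dim probes the median of all genes with Torin1 was 0.341, and 8.38% were called lower and 7.52% higher.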
